A study of Homo sapiens with 6 samples.

Results

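The genes described here are 55 interferon stimulated genes, present in both deposited tables, out of 13002 genes in all. They were taken by symbol from a fixed member list, chosen with earlier results of these data known. They fall by role into 7 sensors of foreign or misplaced nucleic acid, 4 STAT and IRF transcription factors and 44 effectors. Their expression was measured by RNA sequencing in the established human line OCI-AML2, derived from acute myeloid leukaemia, which the labels describe as an engineered leukaemic stem cell line. The first group of 2 libraries carried a control hairpin, which the labels call a scramble sequence and the control columns of the tables call GFP. The other groups, of 2 libraries each, carried TAZ shRNA1 or TAZ shRNA2, hairpins against TAZ, the gene of tafazzin, which remodels the mitochondrial lipid cardiolipin. All 3 groups were transduced with lentivirus and selected in puromycin, so every library analysed here comes from transduced cells. The libraries of a group are lettered A and B. Whether A and B were separate cultures is not stated in the labels. P-values therefore reflect the spread of these libraries only, and part of it may be technical.

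Interferons are secreted when sensors such as RIG-I and MDA5 detect RNA in the cytosol, or when other sensors detect DNA. Type I interferon binds a receptor coupled to JAK kinases, and phosphorylated STAT proteins with IRF9 bind the interferon-stimulated response element in promoters. The induced genes include the sensors and transcription factors themselves, and effectors that degrade RNA, deplete nucleotides, block membrane fusion or modify proteins with ISG15. Many of these genes are also transcribed at a low level without added interferon. Haematopoietic cells use the same pathway.

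Levels are RPKM, reads normalised for gene length and sequencing depth, and values of a group are given in the order A, B. Differences are of log2(RPKM + 0.5), which understates the change of genes near 0. Genes averaging 1 RPKM or more over the libraries compared were tested with limma, and a gene was called higher or lower where its Benjamini-Hochberg adjusted p over all tested genes was under 0.05. The verbs rose and fell are used for called genes only. Between 18849616 and 20998649 reads per library lay in listed genes. TAZ itself stood at 11.3 and 11.9 RPKM (control), 4.02 and 4.1 RPKM (shRNA1) and 1.47 and 2.13 RPKM (shRNA2), so all 4 hairpin libraries were below both control libraries. Its log2 difference from the control was -1.41 (SE 0.13, adjusted p = 0.00205) with shRNA1 and -2.41 (SE 0.18, adjusted p = 0.00245) with shRNA2. The hairpins also differed from each other in TAZ, by -1.0 (SE 0.16, adjusted p = 0.00801), with shRNA2 the lower.

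More of the interferon stimulated genes were higher with shRNA2 than with shRNA1, and at the settings used here none of those tested was called lower. The members were chosen with earlier results of these data known, so the shares below are no independent test. With shRNA1, 11 of 45 tested members rose (24.4%), against 9.99% of all 10613 tested genes. With shRNA2, 22 of 52 tested members rose (42.3%), against 8.12% of all 10659 tested genes. Directly compared, 17 of 49 tested members (34.7%) were higher with shRNA2 than with shRNA1, against 4.78% of all 10660 tested genes. The count of members called lower was 0 in each comparison, where 8.58% of all genes were called lower with shRNA1, 7.61% with shRNA2 and 6.10% with shRNA2 than with shRNA1. At an unadjusted p under 0.05, limma placed 5, 1 and 3 members lower in these comparisons, and limma-voom on recovered reads called 0 lower in each. Other settings called some members lower. A fit with the letters A and B as replicate block called 6 of 45, 2 of 52 and 3 of 49 tested members lower. Of all tested genes it called 1866 of 10613, 2164 of 10659 and 1294 of 10660 lower. Higher in that fit were 17, 34 and 22 members, and 1914, 2006 and 1102 of all tested genes. In bulk RNA, fewer cells of a type and less RNA per cell cannot be told apart.

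Some members passed the minimum level through 1 group alone. With shRNA2 these were 7 genes under 1 RPKM in the control mean (HERC6, IFIT1, IFIT2, IFITM1, MX1, OAS1 and OAS3), with shRNA1 they were HERC6 and OAS1, and between the hairpins IFIT1 and LGALS3BP, under 1 RPKM in the shRNA1 mean. Among members of at least 1 RPKM in the control mean, 10 of 43 rose with shRNA1 (23.3%) and 16 of 45 with shRNA2 (35.6%). The same share over all such genes was 9.52% with shRNA1 and 7.53% with shRNA2. Of 47 members of at least 1 RPKM in the shRNA1 mean, 15 were higher with shRNA2 than with shRNA1 (31.9%), against 4.48% of all such genes. EPSTI1, IFI44L and RSAD2 were under the minimum level in all 3 comparisons, so they have levels and no test.

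Over all 55 members, with no minimum level, the median log2 difference was 0.23 with shRNA1, 0.62 with shRNA2 and 0.51 between the hairpins. The medians over all genes were -0.01, 0.00 and 0.00. Both shRNA1 libraries lay above both control libraries for 29 members and below them for 16. Both shRNA2 libraries lay above both control libraries for 41 members and below them for 2, IFITM2 and UBE2L6. The share of all genes that separate in this way was not computed, and 2 against 2 libraries can separate without a difference. The counts changed when a library was left out, and 1 library then stood alone in its group. Fewer members rose with shRNA1 without shRNA1 A or without shRNA1 B, and fewer with shRNA2 without shRNA2 B. Without any 1 hairpin library, fewer were higher with shRNA2 than with shRNA1. In each of these fits fewer of all tested genes were called higher too, so the drop was not particular to the members. The members' median log2 difference with shRNA1 was 0.26 without shRNA1 A and 0.17 without shRNA1 B. Some members were called lower in each comparison when control B was dropped, and with shRNA1 and between the hairpins when control A was. More of all tested genes were called lower in those fits too, so the calls were not particular to the members. Dropping shRNA2 B also gave a member called lower between the hairpins, although fewer of all tested genes were. The members' median log2 difference with shRNA1 was 0.19 when either control library was dropped. With a minimum of 5 RPKM, 5 of 19 tested members rose with shRNA1, 10 of 23 with shRNA2 and 7 of 23 between the hairpins.

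**Figure D1:**
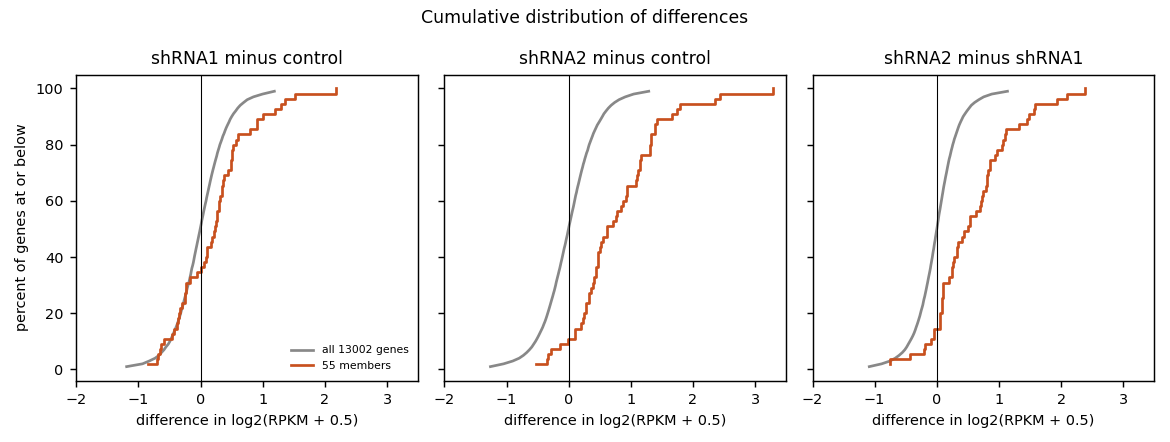
Cumulative percent of genes (vertical axis) at or below each difference in log2(RPKM + 0.5) (horizontal axis), for the 55 members (orange steps) and for the percentiles of all 13002 genes (grey line). The members' curve lies to the right of all genes over most of its length with shRNA2 (median 0.62) and between the hairpins (median 0.51), and crosses the grey line below 0 with shRNA1 (median 0.23).

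The members fell into 4 sets by which hairpin called them. CMPK2, IFI27, MX2, OAS1, OAS2, SAMD9, SAMHD1 and STAT2 were called higher with both hairpins. Called with shRNA1 and not with shRNA2 were ADAR, HERC5 and TRIM22. Another 14 were called with shRNA2 and not with shRNA1 (BST2, HERC6, IFI35, IFI6, IFIT1, IFITM1, IFITM3, IRF7, IRF9, LGALS3BP, MX1, OAS3, PARP9 and SAMD9L). Among them, IFIT1, IFITM1, LGALS3BP, MX1 and OAS3 were under the minimum level with shRNA1 and had no test there. Being called with 1 hairpin and not with the other does not show that the hairpins differ. Of the 17 genes called with 1 hairpin only, 11 passed the direct test between the hairpins, and OAS3 was not tested in it. Both comparisons share the 2 control libraries. A further 4 genes, IFIH1, IFIT3, ISG15 and PARP12, were called in the direct test alone, which makes 29 members called at least once and 26 called in none.

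**Figure D2:**
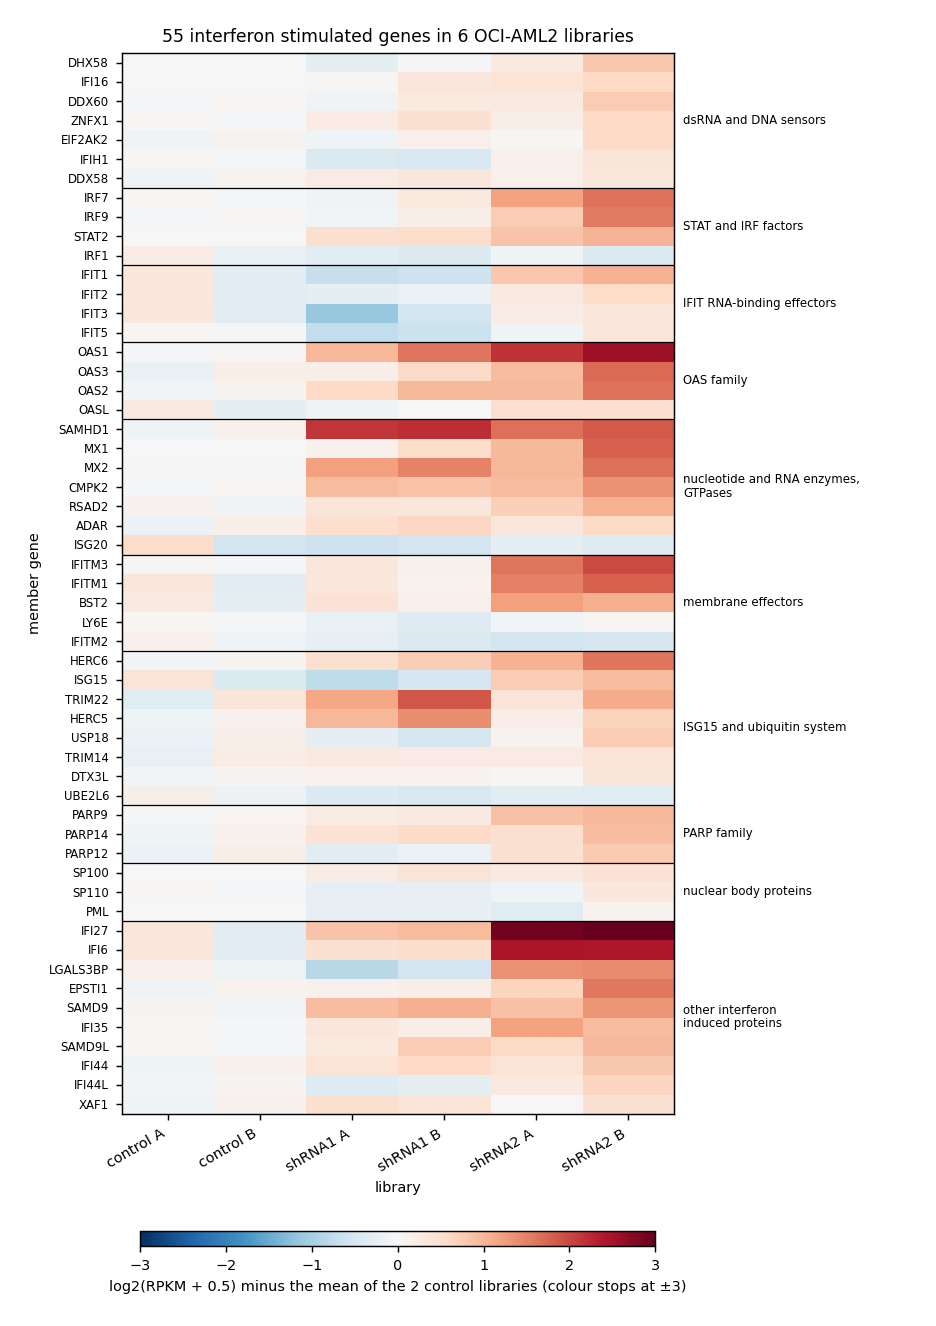
Each of the 55 members (rows, grouped by role) in each of the 6 libraries (columns), coloured by its log2(RPKM + 0.5) minus the mean of the 2 control libraries. Blocks of red in both shRNA2 columns mark IFI27, IFI6, OAS1, IFITM3 and SAMHD1, and blue in both shRNA1 columns marks IFIT1, IFIT3, IFIT5 and LGALS3BP.

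Promoters were searched because the interferon-stimulated response element is what the STAT and IRF complex reads. Its core pattern, GAAA, any 2 bases and GAAA, was looked for on both strands of RefSeq promoter windows, 250 bases before to 50 after a start site on build GRCh38.p14, and 43 of the 55 members had at least 1 window. Of these 43 members, 27 held a match (62.8%), or 31 of 59 windows (52.5%), against 1255 of all 35116 windows (3.57%). Among the members with windows, 13 of the 16 that were higher with shRNA2 than with shRNA1 held a match (81.2%), 11 of the 19 called higher with shRNA2 (57.9%) and 3 of the 8 called higher with shRNA1 (37.5%). The members not called with shRNA2 held it at 16 of 24 (66.7%). The gamma-activated pattern, TTC, any 3 bases and GAA, was in 12 of the 43 members, or 13 of 59 windows (22.0%), against 7.66% of all windows, and 8 of the 51 response element matches in members overlapped it. These shares are descriptions of letters in a window, with no test.

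The 4 promoters printed are those of the members that rose most with shRNA2 among those with a match, 250 bases up to the start site on the gene's strand, with matches in capitals. IFI27 has 2 windows, of which the first in the table is shown. IFI27 has its matches on either strand, IFI6 has 3 on its own strand, IFITM3 has a pair close to the start site, and IFITM1 has 1 here and another that spans the start site. They lie at chr14:94110486-94110735 on the plus strand (IFI27), chr1:27672193-27672442 on the minus strand (IFI6), chr11:320861-321110 on the minus strand (IFITM3) and chr11:313790-314039 on the plus strand (IFITM1), GRCh38.p14.
IFI27: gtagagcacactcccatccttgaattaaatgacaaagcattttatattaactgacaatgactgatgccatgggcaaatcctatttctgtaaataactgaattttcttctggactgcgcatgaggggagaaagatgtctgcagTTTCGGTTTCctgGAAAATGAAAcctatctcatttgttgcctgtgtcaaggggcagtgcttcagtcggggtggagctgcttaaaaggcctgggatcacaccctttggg
IFI6: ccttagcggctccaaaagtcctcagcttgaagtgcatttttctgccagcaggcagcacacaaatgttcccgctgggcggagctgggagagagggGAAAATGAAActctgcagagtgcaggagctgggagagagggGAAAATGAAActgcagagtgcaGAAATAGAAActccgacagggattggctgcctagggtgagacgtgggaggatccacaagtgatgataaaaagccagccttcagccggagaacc
IFITM3: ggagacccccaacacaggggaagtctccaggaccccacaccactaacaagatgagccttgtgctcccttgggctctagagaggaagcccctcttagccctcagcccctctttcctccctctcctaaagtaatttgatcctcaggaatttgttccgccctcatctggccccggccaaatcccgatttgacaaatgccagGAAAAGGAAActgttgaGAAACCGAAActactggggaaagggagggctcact
IFITM1: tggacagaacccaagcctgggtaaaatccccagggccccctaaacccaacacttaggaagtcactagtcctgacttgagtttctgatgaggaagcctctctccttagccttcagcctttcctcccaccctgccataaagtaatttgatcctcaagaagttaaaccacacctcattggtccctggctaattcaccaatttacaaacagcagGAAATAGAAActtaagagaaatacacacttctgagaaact

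Shown next are 30 bases around the match nearest the start site in the 6 members that lay below the control mean with shRNA1 and were higher with shRNA2 than with shRNA1 by the direct test, to show what precedes genes whose group means were in the order shRNA1, control, shRNA2. Their shRNA1 means were not called lower than the control. All 6 hold a match, in capitals, and in IFIT1, IFIT3 and PARP12 it reads on the other strand. IFIT3 has 2 windows, and the sequence is from the first in the table. On GRCh38.p14 the stretches lie at chr2:162318686-162318715 (IFIH1, minus strand), chr10:89392510-89392539 (IFIT1, plus), chr10:89327865-89327894 (IFIT3, plus), chr1:1013380-1013409 (ISG15, plus), chr17:78979962-78979991 (LGALS3BP, minus) and chr7:140062952-140062981 (PARP12, minus).
IFIH1: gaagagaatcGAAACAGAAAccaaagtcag
IFIT1: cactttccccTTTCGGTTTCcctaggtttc
IFIT3: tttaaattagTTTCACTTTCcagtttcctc
ISG15: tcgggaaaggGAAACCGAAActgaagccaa
LGALS3BP: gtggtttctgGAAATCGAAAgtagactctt
PARP12: tttcgccggcccggggccgcTTTCGGTTTC
OAS1 and SAMHD1, which rose strongly with both hairpins, had windows without a match, as did STAT2, CMPK2 and ADAR. Without a match, only these letters are absent from the window.

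**Figure D3:**
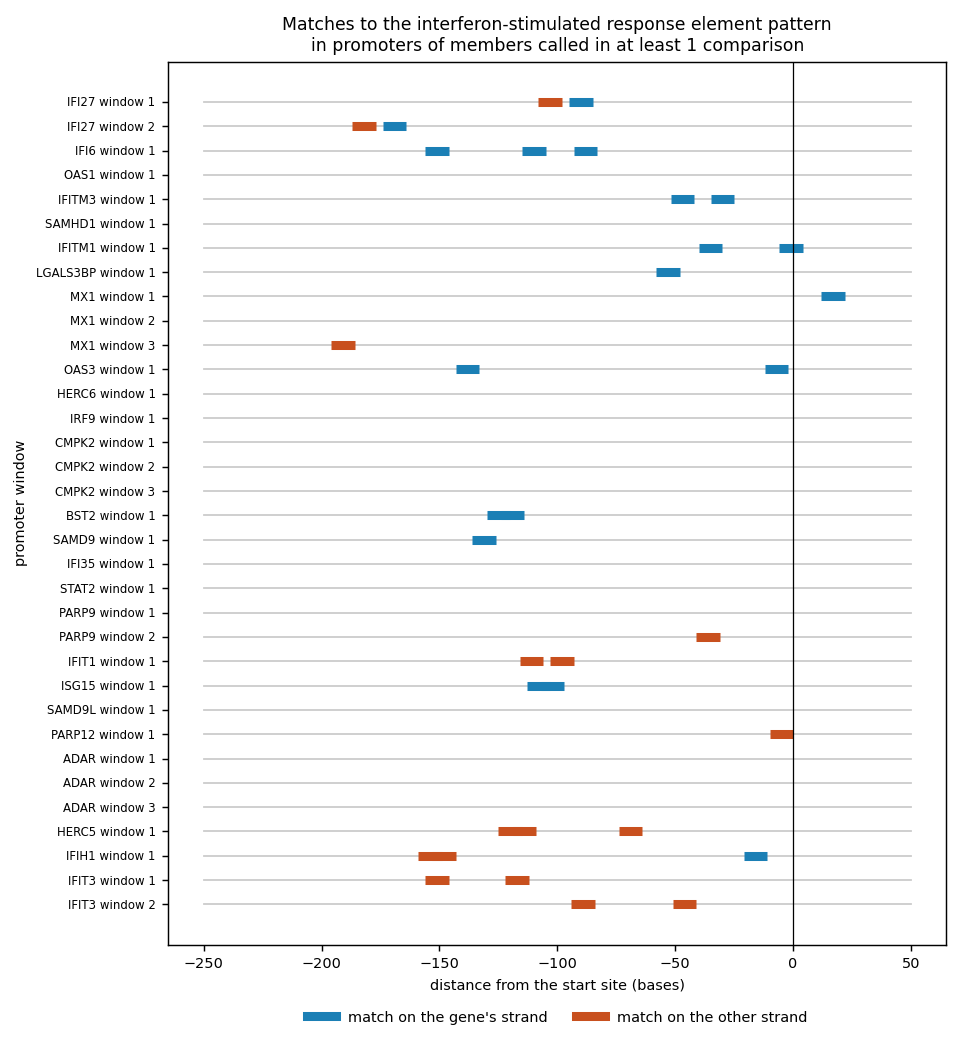
Matches of the response element pattern (blue, gene's strand; orange, other strand) by distance in bases from the start site, for every RefSeq promoter window of the members called in at least 1 comparison, ordered from the largest difference with shRNA2 at the top. IFI6 has 3 matches and OAS1 and SAMHD1 none.

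None of the 7 sensors was called against the control with either hairpin, a count near the share of all genes called higher (9.99% and 8.12%). With shRNA1, limma gave 0 sensors higher at an unadjusted p under 0.05 and 1 lower, and with shRNA2 it gave 3 higher and 0 lower. Limma-voom called 0 in both. IFIH1 (gene ID 64135) encodes MDA5, which binds long double-stranded RNA. It stood at 3.07 and 2.88 RPKM (control), 2.07 and 1.97 RPKM (shRNA1) and 3.37 and 4.08 RPKM (shRNA2), below both controls with shRNA1 and above them with shRNA2. Its log2 difference was -0.46 (SE 0.15, adjusted p = 0.072) with shRNA1 and 0.28 (SE 0.17, adjusted p = 0.301) with shRNA2, and between the hairpins 0.74 (SE 0.15, adjusted p = 0.0197), the single call among sensors. That call was lost at adjusted p = 0.13 without shRNA1 A, 0.167 without shRNA1 B and 0.106 without shRNA2 B. With shRNA1, IFIH1 was called lower when a gene length trend was removed (adjusted p = 0.0444) and without control B (0.0317).

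DDX58 encodes RIG-I, the receptor for RNA with a 5′ triphosphate. It measured 1.53 and 1.88 RPKM (control), 2.11 and 2.3 RPKM (shRNA1) and 1.96 and 2.27 RPKM (shRNA2), above both controls in every hairpin library, with differences of 0.30 (SE 0.17, adjusted p = 0.232) and 0.25 (SE 0.19, adjusted p = 0.402). DHX58 encodes LGP2, which has no signalling domain of its own and acts on the other members of its family. DHX58 levels were 1.39 and 1.36 RPKM (control), 1.06 and 1.29 RPKM (shRNA1) and 1.79 and 2.8 RPKM (shRNA2), with -0.17 (SE 0.17, adjusted p = 0.504) for shRNA1 and 0.55 (SE 0.23, adjusted p = 0.136) for shRNA2. The gap between the hairpins was 0.72 (SE 0.21, adjusted p = 0.0617), with both shRNA2 libraries above both shRNA1 libraries.

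IFI16, a sensor of DNA in nucleus and cytosol, was at 7.85 and 7.79 RPKM (control), 8.0 and 10.0 RPKM (shRNA1) and 10.6 and 12.2 RPKM (shRNA2). Every hairpin library exceeded both controls, by 0.18 (SE 0.15, adjusted p = 0.399) with shRNA1 and 0.51 (SE 0.15, adjusted p = 0.0521) with shRNA2, the latter close to the threshold. EIF2AK2 encodes PKR, the kinase that stops translation on sensing double-stranded RNA, and measured 3.01 and 3.55 RPKM (control), 2.94 and 3.68 RPKM (shRNA1) and 3.42 and 5.2 RPKM (shRNA2). Its libraries overlapped between groups, with 0.01 (SE 0.17, adjusted p = 0.984) and 0.33 (SE 0.22, adjusted p = 0.326).

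DDX60, a helicase related to the RIG-I family, stood at 2.39 and 2.67 RPKM (control), 2.32 and 3.22 RPKM (shRNA1) and 3.13 and 4.61 RPKM (shRNA2). Its shRNA2 libraries were above both controls and its shRNA1 libraries overlapped them, with 0.10 (SE 0.18, adjusted p = 0.734) and 0.51 (SE 0.21, adjusted p = 0.137). ZNFX1, a helicase found at mitochondria that binds viral RNA, measured 2.84 and 2.66 RPKM (control), 3.35 and 3.95 RPKM (shRNA1) and 3.25 and 4.38 RPKM (shRNA2), with 0.35 (SE 0.15, adjusted p = 0.148) and 0.40 (SE 0.19, adjusted p = 0.185) and no overlap with the controls. Sensors as a group had a median log2 difference of 0.10 with shRNA1 and 0.40 with shRNA2.

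Of the 4 STAT and IRF factors, 1 rose with shRNA1, 3 rose with shRNA2 and 2 were higher with shRNA2 than with shRNA1. The shares of all genes were 9.99%, 8.12% and 4.78%. STAT2 (gene ID 6773) is the signal transducer specific to type I and type III interferon. It stood at 6.97 and 6.82 RPKM (control), 9.76 and 10.1 RPKM (shRNA1) and 12.9 and 14.4 RPKM (shRNA2), so the groups did not overlap and stood in the order control, shRNA1, shRNA2. The log2 difference was 0.50 (SE 0.13, adjusted p = 0.0347) with shRNA1 and 0.94 (SE 0.14, adjusted p = 0.00822) with shRNA2. Between the hairpins it was 0.44 (SE 0.12, adjusted p = 0.0539), just short of the threshold. The shRNA1 call was lost with a gene length trend removed (adjusted p = 0.0599) and was lost at adjusted p = 0.189 without shRNA1 A and 0.307 without shRNA1 B.

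IRF9 is a DNA-binding partner of STAT2. It measured 3.36 and 3.62 RPKM (control), 3.29 and 4.07 RPKM (shRNA1) and 6.28 and 11.2 RPKM (shRNA2), and shRNA2 B was well above shRNA2 A. IRF9 did not differ from the control by a called amount with shRNA1, 0.06 (SE 0.16, adjusted p = 0.8), and rose with shRNA2 by 1.16 (SE 0.25, adjusted p = 0.0237). Between the hairpins the difference was 1.10 (SE 0.24, adjusted p = 0.0235). Without shRNA2 B both calls were lost, at adjusted p = 0.0809 against the control and 0.0865 between the hairpins, and the second also without shRNA1 A (0.17) or shRNA1 B (0.107).

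IRF7 is the factor that amplifies transcription of interferon alpha genes. Its levels were 2.29 and 2.09 RPKM (control), 1.99 and 2.8 RPKM (shRNA1) and 5.69 and 7.84 RPKM (shRNA2), so shRNA1 overlapped the control while both shRNA2 libraries were far above. The differences were 0.09 (SE 0.19, adjusted p = 0.752) with shRNA1, 1.42 (SE 0.19, adjusted p = 0.00583) with shRNA2 and 1.33 (SE 0.20, adjusted p = 0.00567) between hairpins, the last lost without shRNA1 A (adjusted p = 0.0623). IRF1, an early response factor of interferon gamma signalling, stood at 5.13 and 3.69 RPKM (control), 3.4 and 3.17 RPKM (shRNA1) and 3.92 and 3.12 RPKM (shRNA2), below both controls with shRNA1 and overlapping them with shRNA2. It was not called, with -0.36 (SE 0.18, adjusted p = 0.19) and -0.28 (SE 0.20, adjusted p = 0.373), but without control B it was called lower with shRNA1 (-0.57, adjusted p = 0.00901).

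**Figure D4:**
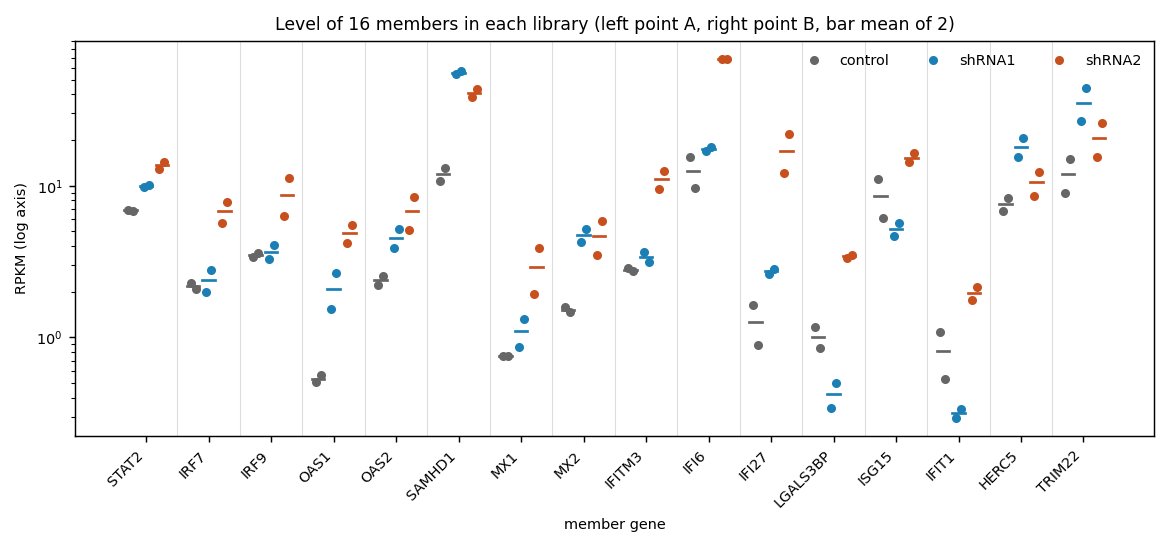
RPKM (log axis) of 16 members in each library, with control in grey, shRNA1 in blue and shRNA2 in orange; in each colour the left point is library A, the right point library B and the bar their mean. IRF7, IRF9, IFITM3, IFI6 and IFI27 separate shRNA2 from both other groups, ISG15, IFIT1 and LGALS3BP have shRNA1 lowest, and HERC5, TRIM22 and SAMHD1 have shRNA1 highest.

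The IFIT genes encode RNA-binding effectors, of which IFIT1 binds RNA lacking the host's cap methylation. All 4 had means below the control with shRNA1 and above it with shRNA2. Levels were low, so 1 was tested with shRNA1, 4 with shRNA2 and 2 between the hairpins, of which 0, 1 and 2 were called higher. IFIT1 and IFIT2 with shRNA2, and IFIT1 between the hairpins, passed the minimum level through the shRNA2 libraries alone. The shares of all genes were 9.99%, 8.12% and 4.78%. IFIT1 (gene ID 3434) stood at 1.09 and 0.535 RPKM (control), 0.294 and 0.339 RPKM (shRNA1) and 1.75 and 2.15 RPKM (shRNA2), and its 28 and 33 reads with shRNA1 compare with 90 and 50 in the control. Expression rose with shRNA2, 0.93 (SE 0.26, adjusted p = 0.0485), and was higher with shRNA2 than with shRNA1 by 1.58 (SE 0.24, adjusted p = 0.00592).

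Several settings removed the IFIT1 call against the control. It was lost with a pseudocount of 0.1 (adjusted p = 0.0529) and with a gene length trend removed (0.0588), and was lost at adjusted p = 0.116 without control B and 0.139 without shRNA2 B. Between the hairpins IFIT1 was lost at adjusted p = 0.0619 without shRNA1 A and 0.0607 without shRNA1 B. IFIT3, the partner that stabilises IFIT1 on RNA, measured 4.33 and 2.5 RPKM (control), 1.23 and 2.08 RPKM (shRNA1) and 3.95 and 4.24 RPKM (shRNA2), with shRNA1 below every other library. Its difference was -0.85 (SE 0.28, adjusted p = 0.0734) with shRNA1, 0.27 (SE 0.24, adjusted p = 0.457) with shRNA2 and 1.12 (SE 0.26, adjusted p = 0.0297) between the hairpins. The last was lost at adjusted p = 0.219 without shRNA1 A, 0.0659 without shRNA1 B, 0.108 without shRNA2 A and 0.123 without shRNA2 B.

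IFIT2 and IFIT5 ranged from 0.421 to 1.44 RPKM over all libraries, and neither was called. IFIT5 had both shRNA1 libraries (0.421 and 0.482 RPKM) below both controls (1.1 and 0.966 RPKM). For the tested IFIT gene with shRNA1, IFIT3, limma's unadjusted p was under 0.05 on the lower side, and limma-voom called it neither way. In the authors' deposited table, which uses all listed genes, IFIT1, IFIT3 and IFIT5 were called lower with shRNA1, at log2 fold changes of -1.33, -1.04 and -1.20.

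Oligoadenylate synthetases make a nucleotide messenger on sensing double-stranded RNA, and OAS genes were among the most raised members. Of those tested, 2 of 3 rose with shRNA1 and 3 of 4 with shRNA2, where 9.99% and 8.12% of all genes rose. OAS1 with either hairpin and OAS3 with shRNA2 passed the minimum level through the hairpin libraries alone, which favours calls of higher genes. OAS1 (gene ID 4938) stood at 0.504 and 0.564 RPKM (control), 1.55 and 2.65 RPKM (shRNA1) and 4.18 and 5.51 RPKM (shRNA2), so shRNA2 was above shRNA1 and shRNA1 above the control in every library. Mean RPKM was 3.93 times the control with shRNA1 and 9.07 times with shRNA2. The log2 differences were 1.30 (SE 0.23, adjusted p = 0.0134) and 2.36 (SE 0.20, adjusted p = 0.00245), and between the hairpins 1.06 (SE 0.23, adjusted p = 0.0238). Of these calls, where tested, the last alone was lost. That was without shRNA1 A (difference 0.75), without shRNA2 A (1.24) and without shRNA2 B (0.88). Without shRNA1 B, OAS1 was under the minimum level with shRNA1, so that call had no test there.

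OAS2 measured 2.22 and 2.53 RPKM (control), 3.86 and 5.2 RPKM (shRNA1) and 5.11 and 8.43 RPKM (shRNA2), higher in all hairpin libraries than in the control, with 0.80 (SE 0.18, adjusted p = 0.0257) and 1.30 (SE 0.23, adjusted p = 0.0136). The shRNA1 call was lost at adjusted p = 0.244 without shRNA1 B. The hairpins overlapped in OAS2. OAS3, which senses long double-stranded RNA, was low at 0.287 and 0.528 RPKM (control), 0.512 and 0.837 RPKM (shRNA1) and 1.25 and 2.43 RPKM (shRNA2). With shRNA2 it rose, 1.33 (SE 0.30, adjusted p = 0.0267), and was under the minimum level with shRNA1, where 1 of its libraries lay below a control library. OASL lacks the synthetase activity of its relatives and was not called, at 1.66 and 0.970 RPKM in the control and 1.97 and 1.98 with shRNA2.

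Enzymes of nucleotides and RNA, and the MX GTPases, were called higher at 4 of 5 tested with shRNA1 and 4 of 6 with shRNA2. MX1, called with shRNA2, passed the minimum level there through the shRNA2 libraries alone. The shares of all genes were 9.99% and 8.12%. SAMHD1 (gene ID 25939) cleaves deoxynucleotide triphosphates, which limits reverse transcription. Its levels were 10.8 and 13.1 RPKM (control), 54.4 and 56.7 RPKM (shRNA1) and 38.4 and 43.7 RPKM (shRNA2), and among members it had the largest difference with shRNA1. The mean was 4.65 times the control with shRNA1 and 3.44 times with shRNA2, with log2 differences of 2.18 (SE 0.13, adjusted p = 0.00102) and 1.74 (SE 0.16, adjusted p = 0.00245). Both shRNA2 libraries lay below both shRNA1 libraries, a difference of -0.44 (SE 0.14, adjusted p = 0.0794) that was not called.

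MX2 encodes a GTPase of the nuclear envelope that restricts HIV. It was at 1.59 and 1.47 RPKM (control), 4.26 and 5.19 RPKM (shRNA1) and 3.51 and 5.83 RPKM (shRNA2), higher by 1.36 (SE 0.16, adjusted p = 0.0039) with shRNA1 and by 1.32 (SE 0.24, adjusted p = 0.0138) with shRNA2, and the hairpins overlapped. MX1, the cytosolic GTPase active against influenza virus, stood at 0.750 and 0.748 RPKM (control), 0.863 and 1.33 RPKM (shRNA1) and 1.94 and 3.86 RPKM (shRNA2). With shRNA2 it rose by 1.38 (SE 0.29, adjusted p = 0.0208), and was higher than with shRNA1 by 1.05 (SE 0.28, adjusted p = 0.0478). That difference was lost with no minimum level (adjusted p = 0.052) and was lost at adjusted p = 0.296 without shRNA1 A, 0.135 without shRNA1 B and 0.186 without shRNA2 B.

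CMPK2, a mitochondrial nucleotide kinase, measured 1.56 and 1.72 RPKM (control), 3.64 and 3.36 RPKM (shRNA1) and 3.6 and 4.99 RPKM (shRNA2). It rose by 0.90 (SE 0.15, adjusted p = 0.011) with shRNA1 and by 1.15 (SE 0.20, adjusted p = 0.0123) with shRNA2, the first being lost at adjusted p = 0.0691 without shRNA1 A and 0.0628 without shRNA1 B. ADAR edits adenosine to inosine in double-stranded RNA and was at 18.0 and 23.4 RPKM (control), 29.4 and 31.8 RPKM (shRNA1) and 26.1 and 31.3 RPKM (shRNA2). Its difference was 0.57 (SE 0.15, adjusted p = 0.0403) with shRNA1 and 0.47 (SE 0.18, adjusted p = 0.11) with shRNA2, so the call held for shRNA1 alone, while the difference between the hairpins was -0.10 (SE 0.16, adjusted p = 0.746). The shRNA1 call was lost with a gene length trend removed (adjusted p = 0.0519) and was lost at adjusted p = 0.101 without shRNA1 A and 0.238 without shRNA1 B.

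RSAD2 encodes viperin, which makes a chain-terminating nucleotide, and stayed under 1 RPKM in all libraries (from 0.126 to 0.907 RPKM). ISG20, an RNA exonuclease, was the member whose control libraries lay farthest apart, at 3.16 and 1.19 RPKM. Its hairpin libraries lay between 1.12 and 1.56 RPKM, and it was not called.

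Membrane effectors were called with shRNA2 and not with shRNA1. Of 5 tested with shRNA2, 3 rose, where 8.12% of all genes did. Among the 3, IFITM1 passed the minimum level through the shRNA2 libraries alone. Of 4 tested with shRNA1, limma called 0 higher or lower, where 9.99% of all genes were higher and 8.58% lower. At an unadjusted p under 0.05 limma gave 0 higher and 1 lower with shRNA1, and limma-voom called 0. IFITM3 (gene ID 10410) blocks fusion of virus and endosome membranes. It stood at 2.85 and 2.73 RPKM (control), 3.63 and 3.12 RPKM (shRNA1) and 9.47 and 12.5 RPKM (shRNA2), rose by 1.79 (SE 0.18, adjusted p = 0.00255) with shRNA2 and was 1.56 (SE 0.16, adjusted p = 0.00149) above shRNA1. With shRNA1 the difference from the control was 0.23 (SE 0.15, adjusted p = 0.302).

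IFITM1, its relative at the cell surface, had few reads outside shRNA2. It measured 1.17 and 0.550 RPKM (control), 1.15 and 0.925 RPKM (shRNA1) and 3.3 and 4.1 RPKM (shRNA2), or 15 and 8 reads, 17 and 14 reads, and 46 and 59 reads. The difference was 1.66 (SE 0.26, adjusted p = 0.00849) with shRNA2 and 1.45 (SE 0.24, adjusted p = 0.00864) between the hairpins, the second being lost at adjusted p = 0.0595 without shRNA1 A, 0.0939 without shRNA1 B and 0.0597 without shRNA2 B. IFITM2 had the highest control level of all members and did not share the direction of its neighbours. It stood at 142 and 115 RPKM (control), 108 and 94.6 RPKM (shRNA1) and 87.7 and 90.0 RPKM (shRNA2), below both controls in every hairpin library, with -0.34 (SE 0.15, adjusted p = 0.14) and -0.52 (SE 0.17, adjusted p = 0.0717). The 3 IFITM genes are related copies, and how reads shared between copies were counted is not given in the sources used here, so each value is uncertain.

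BST2 encodes tetherin, which holds budding virus at the surface. Its levels were 46.4 and 32.2 RPKM (control), 52.1 and 43.3 RPKM (shRNA1) and 91.8 and 81.2 RPKM (shRNA2), with 0.30 (SE 0.19, adjusted p = 0.291) for shRNA1, 1.15 (SE 0.20, adjusted p = 0.0118) for shRNA2 and 0.86 (SE 0.19, adjusted p = 0.0232) between the hairpins. The last was lost at adjusted p = 0.0936 without shRNA1 A, 0.201 without shRNA1 B, 0.114 without shRNA2 A and 0.066 without shRNA2 B. LY6E, a lipid-anchored surface protein, ranged from 81.3 to 111 RPKM and was not called in any comparison.

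Of the 8 genes of ISG15 and the ubiquitin system, 2 rose with shRNA1 and 1 with shRNA2, and 1 was higher with shRNA2 than with shRNA1. With 8 genes, these counts do not stand apart from the shares of all genes called higher, 9.99%, 8.12% and 4.78%. HERC6, the gene that rose with shRNA2, passed the minimum level there through the shRNA2 libraries alone. ISG15 (gene ID 9636) is the ubiquitin-like protein attached to other proteins after interferon. It stood at 11.1 and 6.15 RPKM (control), 4.66 and 5.69 RPKM (shRNA1) and 14.3 and 16.4 RPKM (shRNA2), lowest with shRNA1 and highest with shRNA2, with no overlap. Against the control neither hairpin was called, at -0.63 (SE 0.26, adjusted p = 0.12) and 0.85 (SE 0.25, adjusted p = 0.0574). Between the hairpins the difference was 1.48 (SE 0.24, adjusted p = 0.0079), and it was lost at adjusted p = 0.0785 without shRNA1 A, 0.0535 without shRNA1 B and 0.0567 without shRNA2 B.

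HERC5 is the ligase that attaches ISG15. It went the other way, with 6.77 and 8.29 RPKM (control), 15.4 and 20.5 RPKM (shRNA1) and 8.61 and 12.4 RPKM (shRNA2), so shRNA1 was highest. Its differences were 1.19 (SE 0.17, adjusted p = 0.00723) with shRNA1 and 0.44 (SE 0.20, adjusted p = 0.173) with shRNA2, and between the hairpins -0.75 (SE 0.20, adjusted p = 0.0503), just short of the threshold. TRIM22, a ubiquitin ligase active against retroviruses, measured 8.95 and 15.1 RPKM (control), 26.6 and 43.9 RPKM (shRNA1) and 15.5 and 25.9 RPKM (shRNA2). It rose with shRNA1 by 1.51 (SE 0.29, adjusted p = 0.0159), although with robust variance estimates it did not pass (adjusted p = 0.0676), and with shRNA2 it was 0.76 (SE 0.29, adjusted p = 0.119). The pair of shRNA1 libraries of TRIM22 lay farther apart than those of any other member.

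HERC6, the relative of HERC5 next to it in the genome, was at 0.632 and 0.761 RPKM (control), 1.16 and 1.5 RPKM (shRNA1) and 1.96 and 3.11 RPKM (shRNA2). It rose with shRNA2, 1.32 (SE 0.24, adjusted p = 0.0142), and with shRNA1 it was 0.61 (SE 0.19, adjusted p = 0.0602). In this group the hairpins differed least for TRIM14, DTX3L and UBE2L6, whose differences between hairpins were 0.06, 0.09 and 0.08, none called. UBE2L6, the enzyme that carries ISG15 to its ligase, was below both controls in all hairpin libraries, at 18.7 and 14.7 RPKM (control), 12.4 and 11.8 RPKM (shRNA1) and 12.9 and 12.7 RPKM (shRNA2). USP18, which removes ISG15 and restrains the receptor, was 0.82 higher with shRNA2 than with shRNA1 (adjusted p = 0.0545).

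The 3 PARP proteins transfer ADP-ribose to other proteins. PARP9 stood at 2.06 and 2.31 RPKM (control), 2.64 and 2.72 RPKM (shRNA1) and 4.46 and 4.79 RPKM (shRNA2), and rose with shRNA2 by 0.93 (SE 0.17, adjusted p = 0.0133). It lay above the control in both shRNA1 libraries too, at 0.24 (SE 0.15, adjusted p = 0.286), and between the hairpins it differed by 0.69 (SE 0.14, adjusted p = 0.0201). Without shRNA2 B the shRNA2 call was lost (adjusted p = 0.0548), and the difference between hairpins was lost at adjusted p = 0.156 without shRNA1 A, 0.148 without shRNA1 B, 0.0758 without shRNA2 A and 0.0989 without shRNA2 B. PARP9 and its partner DTX3L are divergent neighbours, and no strand setting of the counting is given in the sources used here, so reads of the pair are uncertain.

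PARP12, a relative with zinc fingers that bind RNA, was at 2.43 and 3.2 RPKM (control), 2.14 and 2.43 RPKM (shRNA1) and 4.0 and 5.16 RPKM (shRNA2), below the control with shRNA1 and above it with shRNA2. It was higher with shRNA2 than with shRNA1 by 0.86 (SE 0.18, adjusted p = 0.0212), a call that was lost at adjusted p = 0.161 without shRNA1 A, 0.118 without shRNA1 B and 0.115 without shRNA2 B. PARP14 measured 3.18 and 3.87 RPKM (control), 4.94 and 5.5 RPKM (shRNA1) and 5.11 and 7.14 RPKM (shRNA2), above both controls in every hairpin library, with 0.51 (SE 0.16, adjusted p = 0.0604) and 0.71 (SE 0.20, adjusted p = 0.0505), the latter just short of the threshold. The nuclear body proteins PML, SP100 and SP110 were called in no comparison by limma or limma-voom. With each hairpin 1 of the 3 was higher at an unadjusted p under 0.05, and 0 were lower. Their levels ranged from 3.83 to 11.1 RPKM over all libraries.

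The other interferon induced proteins held the largest differences with shRNA2 and between the hairpins. IFI27 (gene ID 3429), a small protein of mitochondria and the nuclear membrane, stood at 1.63 and 0.891 RPKM (control), 2.63 and 2.83 RPKM (shRNA1) and 12.2 and 21.9 RPKM (shRNA2), from 21 and 13 reads in the control to 171 and 317 with shRNA2. Its mean was 2.17 times the control with shRNA1 and 13.5 times with shRNA2. The log2 differences were 0.91 (SE 0.22, adjusted p = 0.0331) and 3.29 (SE 0.30, adjusted p = 0.00245), and 2.39 (SE 0.28, adjusted p = 0.00228) between the hairpins, a call kept in every alternative run. The shRNA1 call was lost with limma-voom (adjusted p = 0.056), in a fit of all 6 libraries (0.0551), and was lost at adjusted p = 0.0743 without shRNA1 A and 0.148 without shRNA1 B.

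IFI6, which guards mitochondria and the endoplasmic reticulum in virus infection, was at 15.5 and 9.64 RPKM (control), 17.0 and 18.0 RPKM (shRNA1) and 68.9 and 68.2 RPKM (shRNA2). The rise with shRNA2 was 2.44 (SE 0.22, adjusted p = 0.00245) and the excess over shRNA1 1.94 (SE 0.20, adjusted p = 0.00136), while with shRNA1 it was 0.50 (SE 0.21, adjusted p = 0.135). LGALS3BP, a secreted glycoprotein that binds galectins, measured 1.16 and 0.851 RPKM (control), 0.343 and 0.503 RPKM (shRNA1) and 3.35 and 3.5 RPKM (shRNA2), lowest with shRNA1 and highest with shRNA2 without overlap. It rose with shRNA2 by 1.39 (SE 0.19, adjusted p = 0.00627) and exceeded shRNA1 by 2.09 (SE 0.19, adjusted p = 0.00102), and was under the minimum level with shRNA1. In the authors' deposited table its log2 fold change was -1.24 with shRNA1 and 1.78 with shRNA2.

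SAMD9 restricts poxviruses and acts on translation. Its levels were 3.29 and 2.88 RPKM (control), 6.31 and 7.03 RPKM (shRNA1) and 6.05 and 8.43 RPKM (shRNA2), and it rose by 1.0 (SE 0.15, adjusted p = 0.00733) with shRNA1 and by 1.10 (SE 0.19, adjusted p = 0.0129) with shRNA2, with the hairpins overlapping. The first call was lost at adjusted p = 0.0572 without shRNA1 B and the second lost at adjusted p = 0.0516 without shRNA2 B. SAMD9L, its neighbouring relative, was at 1.27 and 1.11 RPKM (control), 1.56 and 2.37 RPKM (shRNA1) and 2.02 and 2.82 RPKM (shRNA2), called with shRNA2 at 0.78 (SE 0.21, adjusted p = 0.046) and lost at adjusted p = 0.0604 without control B and 0.243 without shRNA2 B. IFI35, a protein that binds NMI, measured 11.3 and 10.9 RPKM (control), 14.2 and 12.8 RPKM (shRNA1) and 26.1 and 21.9 RPKM (shRNA2). It rose with shRNA2 by 1.08 (SE 0.15, adjusted p = 0.00586) and was 0.80 (SE 0.13, adjusted p = 0.0082) above shRNA1, the second being lost at adjusted p = 0.0606 without shRNA1 A, 0.104 without shRNA1 B and 0.0547 without shRNA2 A.

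IFI44, IFI44L, XAF1 and EPSTI1 were not called. IFI44 and XAF1 were above both controls in both shRNA1 libraries, at 6.01 and 6.97 RPKM against 3.98 and 4.89 and at 15.5 and 14.4 RPKM against 9.89 and 12.1. On the log2(RPKM + 0.5) scale EPSTI1 had the widest gap of all members between its shRNA2 libraries, at 0.514 and 1.45 RPKM, or 32 and 93 reads.

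**Figure D5:**
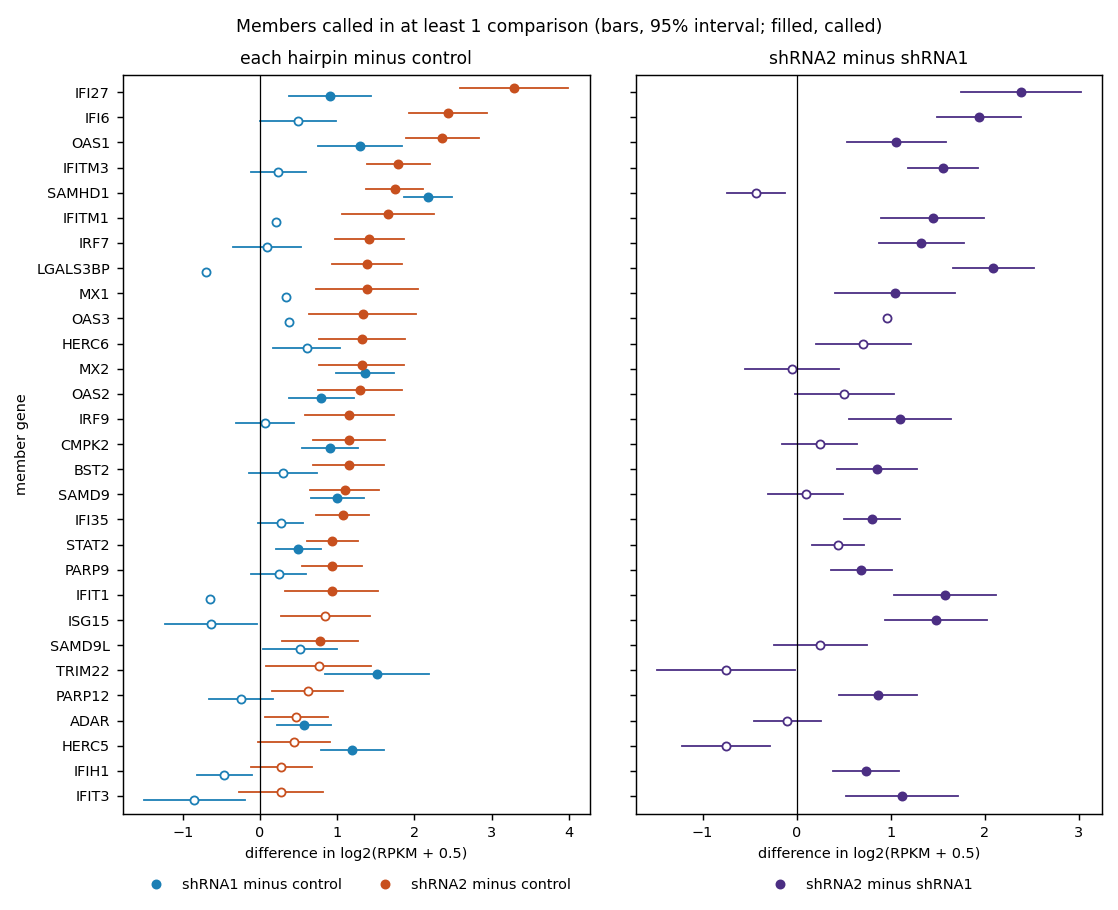
Difference in log2(RPKM + 0.5) with its 95% interval for the 29 members called in at least 1 comparison: each hairpin minus the control (left; shRNA1 blue, shRNA2 orange) and shRNA2 minus shRNA1 (right). Filled points were called, open points were not, and points without a bar were under the minimum level; 17 of the right-hand points are filled, all above 0.

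The direct test between the hairpins placed 17 members higher with shRNA2 and 0 lower, although 4 members, HERC5, IFITM2, SAMHD1 and TRIM22, had both shRNA2 libraries below both shRNA1 libraries. Above them were 33 members, with 18 overlapping, and the share of all genes that separate so was not computed. Among the 17, for LGALS3BP, IFIT1, IFIT3, ISG15, IFIH1 and PARP12 the shRNA1 mean was below the control and the shRNA2 mean above it. Only LGALS3BP of these, with IFI27, IFI6 and IFITM3, kept the call between hairpins in every alternative run. The hairpins also differ in sequence and in how far TAZ was lowered, and these cannot be told apart here.

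Libraries A and B did not give the members the same level within a group. With shRNA2, 49 of 55 members were higher in B than in A, with a median log2 difference of 0.34, while 48.2% of all genes were higher in B (median -0.01). With shRNA1, 40 of 55 were higher in B (median 0.10), and in the control 24 of 55 (median -0.02). The median log2 difference of the members with shRNA2, 0.62 with both libraries, was 0.45 without shRNA2 B and 0.82 without shRNA2 A. Fewer members rose without shRNA2 B and more without shRNA2 A, while fewer of all tested genes rose in both fits. In each of these fits 1 shRNA2 library stood alone.

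Many members lie beside each other in the genome, and 23 of the 55 form 9 groups of neighbours in RefSeq gene order. The OAS group (OAS1, OAS3, OAS2) had 3 of 3 members higher with shRNA2, and the MX and SAMD9 pairs had 2 of 2, where 8.12% of all genes were higher. Of these, OAS1, OAS3 and MX1 passed the minimum level through the shRNA2 libraries alone. The IFITM group had 2 of 3, the IFIT group 1 of 4, the group of PARP9, DTX3L and PARP14 1 of 3, and the pair of IFI44L and IFI44 0 of 2. IFITM1 and IFIT1, the single gene called in the IFIT group, also passed the minimum level through the shRNA2 libraries alone. Neighbours did not always share a call, as HERC5 was called with shRNA1 and HERC6 with shRNA2, and CMPK2 was called with both while the adjoining RSAD2 was under the minimum level.

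Several genes upstream of the members were higher with both hairpins. Of 10 tested receptor, JAK and STAT genes, 5 rose with shRNA1, 6 with shRNA2 and none fell. Over all tested genes, 9.99% and 8.12% rose, and 8.58% and 7.61% fell. The direct test between hairpins called 0 higher and 0 lower (2 higher and 1 lower at an unadjusted p under 0.05, and 0 by limma-voom). JAK2, a kinase of the interferon gamma receptor, was at 2.83 and 2.86 RPKM (control), 6.74 and 6.37 RPKM (shRNA1) and 6.5 and 6.65 RPKM (shRNA2), higher by 1.08 (SE 0.14, adjusted p = 0.00508) and 1.08 (SE 0.15, adjusted p = 0.00637). IFNAR2, a chain of the type I receptor, and JAK1, a kinase that binds it, rose with both hairpins, by 0.62 and 0.56 and by 0.59 and 0.67. Of the 13 interferon genes of the list fixed here, 0 were listed, so they have no values.

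Other interferon regulatory factors gave 2 of 6 tested higher with shRNA1 and 1 of 6 with shRNA2. Over all genes these shares were 9.99% and 8.12%, and 6 genes are too few to stand apart from them. IRF5, which acts downstream of Toll-like receptors, was at 3.48 and 2.8 RPKM (control), 8.98 and 7.58 RPKM (shRNA1) and 8.47 and 6.64 RPKM (shRNA2) and rose with both. IRF8, a factor of monocyte and dendritic cell development, stood at 129 and 93.7 RPKM (control), 229 and 208 RPKM (shRNA1) and 133 and 104 RPKM (shRNA2). It rose with shRNA1 by 0.99 (SE 0.17, adjusted p = 0.0118) and was lower with shRNA2 than with shRNA1, -0.89 (SE 0.19, adjusted p = 0.0218).

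Adaptors, kinases and further sensors gave 5 of 15 tested higher with shRNA1, 4 of 14 with shRNA2 and none lower. The shares of all genes were 9.99% and 8.12% higher, and 8.58% and 7.61% lower. TMEM173 encodes STING, the adaptor of cytosolic DNA sensing, and measured 65.3 and 61.6 RPKM (control), 109 and 101 RPKM (shRNA1) and 116 and 124 RPKM (shRNA2). TLR8, a receptor of single-stranded RNA, rose from 0.530 and 0.269 RPKM to 2.4 and 2.61 with shRNA1 and 4.1 and 3.33 with shRNA2. IFI30 was in this list although it is a thiol reductase of lysosomes; it rose by 1.14 and 2.29. TLR9 was lower with shRNA2 than with shRNA1, -1.02 (SE 0.19, adjusted p = 0.0123).

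Negative regulators gave PIAS1 and PIAS3, inhibitors of STAT proteins, higher with shRNA1 (2 of 10 tested), and 1 of 11 lower with shRNA2. Both counts are near the shares of all genes, 9.99% higher with shRNA1 and 7.61% lower with shRNA2. The gene called lower was PTPN1, a phosphatase of JAK2 and TYK2, at 13.6 and 15.3 RPKM (control), 18.9 and 18.6 RPKM (shRNA1) and 8.37 and 9.15 RPKM (shRNA2). It was lower with shRNA2, at -0.69 (SE 0.15, adjusted p = 0.0224) and lower than with shRNA1, at -1.06 (SE 0.12, adjusted p = 0.00217).

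Of 20 targets more typical of interferon gamma 16 were listed and 9 tested, too few for a count of 0 to stand apart from the 9.99% and 8.12% of all genes called higher. Limma called 0 higher with either hairpin and 1 lower with shRNA1, PSMB9, an immunoproteasome subunit (-0.56 (SE 0.14, adjusted p = 0.0356)). At an unadjusted p under 0.05, 0 were higher with shRNA1 and 2 with shRNA2, and limma-voom called 0 and 1. A further list of type I targets that are not members gave 2 of 25 higher and 2 lower with shRNA1. It gave 1 higher and 1 lower with shRNA2, and 4 higher and 1 lower between hairpins. Over all genes, 9.99%, 8.12% and 4.78% were higher in these comparisons, and 8.58%, 7.61% and 6.1% lower. Against the control, the counts of this list were near or below those shares, unlike the members' counts of higher genes. TDRD7, an inducible protein that limits autophagy, rose with both, by 1.14 and 1.09, while SHISA5 fell with both, by -0.99 and -1.10. PHF11 and CNP were higher with shRNA2 than with shRNA1, by 0.79 and 0.62. In this further list the median log2 difference was -0.13 with shRNA1 and 0.16 with shRNA2, both closer to 0 than those of the members.

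Markers of myeloid cells were listed at 10 of 11, and their summed level was higher with both hairpins: 1193 and 1041 RPKM in the control libraries, 5737 and 5205 in shRNA1 A and B, 4693 and 3937 in shRNA2 A and B. LYZ, lysozyme, made up most of that sum, at 786 and 676 RPKM (control), 5236 and 4742 RPKM (shRNA1) and 4221 and 3494 RPKM (shRNA2). MPO, a marker of immature myeloid cells, went the other way, at 11.2 and 10.1 RPKM (control), 5.16 and 4.63 RPKM (shRNA1) and 1.02 and 1.49 RPKM (shRNA2). Over all genes, 9.99% were higher and 8.58% lower with shRNA1, 8.12% and 7.61% with shRNA2, and 4.78% and 6.1% between the hairpins. Of the 10 markers tested, 6 were higher and 1 lower with shRNA1, and 3 higher and 1 lower with shRNA2. Between the hairpins, 1 was higher and 3 lower with shRNA2 than with shRNA1. The marker higher in that last comparison was CD14, a monocyte receptor for lipopolysaccharide, with 0.20 (SE 0.28, adjusted p = 0.649) for shRNA1, 2.32 (SE 0.31, adjusted p = 0.00568) for shRNA2 and 2.12 (SE 0.31, adjusted p = 0.00528) between the hairpins. CD33, CSF1R and MPO were lower with shRNA2 than with shRNA1, at -0.47, -0.88 and -1.63. Their part in the members' differences was not tested. Markers of T and NK cells were listed at 2 of 8, with CD3D under 1 RPKM in every library and NKG7 between 27.8 and 42.6. The B cell markers were listed at 4 of 5 and summed to between 1.31 and 5.00 RPKM. CD79B, a chain of the B cell receptor complex and the single one tested, was higher with shRNA1 (1.06 (SE 0.22, adjusted p = 0.0199)) and lower with shRNA2 than with shRNA1 (-1.77 (SE 0.23, adjusted p = 0.00318)). TCF4, the sole plasmacytoid dendritic marker listed, lay between 4.55 and 6.10. The erythroid markers were listed at 0 of 5 and the fibroblast and epithelial markers at 0 of 6, so they have no values.

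The authors' own tests called more members. In the authors' deposited table, 20 members were higher and 10 lower with shRNA1, against 18.8% and 17.1% of all 13002 genes, and 38 were higher and 2 lower with shRNA2, against 19.9% and 18.9%. The members called lower with shRNA1 in the authors' deposited table included IFIH1 (-0.56), ISG15 (-0.71), IFITM2 (-0.34), UBE2L6 (-0.46) and IRF1 (-0.41) on the log2 scale. No minimum level was applied to these counts of members.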

How the data were processed

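RNA sequencing libraries of OCI-AML2 cells with a control hairpin, TAZ shRNA1 or TAZ shRNA2 were analysed, 2 per group. The submitters' processing notes name build hg19 and, with their role and order left unstated, edgeR 3.8.6, DESeq 1.18.0, HTSeq 0.6.1p2, Trim Galore 0.4.0 and TopHat2 2.0.11. How genes were filtered, and with which strand setting reads were counted, is not given in the sources used. Per the file headers, each hairpin has its own deposited table, with the RPKM of 4 libraries for 13004 genes. The deposited tables add, also per the file headers, a p-value and an adjusted p-value, the score of a likelihood-ratio test, and on the log2 scale the authors' fold change and average CPM. The control columns, named GFP, were matched to the control libraries by table title and letter and were identical in both tables for all 13002 genes left after dropping 2 exact repeats. Across the tables, 21 symbols that had become dates were named again by gene ID, and 0 columns of values were left unmatched.

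A gene's RPKM moves in steps of 1 read, which gave back whole reads for 12122 genes (93.2%, to within 0.02 of a read), all 55 members among them. The remaining 880 genes took their scale from the authors' average log2 CPM. These scaled values entered the depth, limma-voom and the removal of a gene length trend. Values were tested as log2(RPKM + 0.5) with limma 3.58.1 (R 4.3.3), allowing a variance trend. Tests were two-sided, adjusted by Benjamini-Hochberg over all genes of at least 1 RPKM on average, with a threshold of 0.05. The fit of each hairpin against the control used 4 libraries, and the fit of hairpin against hairpin all 6. Scripts were tested on simulated data. Gene names came from the tables and promoters from RefSeq (GRCh38.p14), so no coordinates of the files' build are given. Figures and tables were made with Python 3.11.15.

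The members and the gene lists were chosen with earlier results of these data known. Values in every library are given for members called in at least 1 comparison, for sensors and for STAT and IRF factors. Other members are given by range or count, with the member highest in the control and the member of each group whose libraries lay farthest apart. Genes of the other lists are named if called, at most 4 a list by smallest p, plus TAZ and the markers; some that this rule names are not reported here. IFIT5, OASL, IFI44, XAF1, UBE2L6, TRIM14, DTX3L and USP18 were given values after they were seen. Alternatives were the pseudocount, the minimum level, quantile normalization, removal of a gene length trend, robust variance estimates, a replicate block, limma-voom on recovered reads, 1 fit of all libraries, and leaving out each library.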

Additional observations from a re-analysis of the deposited data

Results flagged for a closer look

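The effects of the hairpins differed by the direct test for 17 members, each higher with shRNA2 than with shRNA1 on the log2(RPKM + 0.5) scale, with 2 libraries per group. The differences were 2.39 for IFI27, 2.09 for LGALS3BP, 1.94 for IFI6, 1.58 for IFIT1, 1.56 for IFITM3, 1.48 for ISG15 and 1.45 for IFITM1. They were 1.33 for IRF7, 1.12 for IFIT3, 1.10 for IRF9, 1.06 for OAS1 and 1.05 for MX1. The smallest were 0.86 for PARP12, 0.85 for BST2, 0.80 for IFI35, 0.74 for IFIH1 and 0.69 for PARP9. All 17 had both shRNA2 libraries above both shRNA1 libraries. No group had the 4 or more libraries needed to look for a library far from the others.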

How the results depend on the processing

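Leaving out a library gave between 4 and 16 members higher with shRNA1 (11 with all), 16 to 25 with shRNA2 (22) and 4 to 20 between the hairpins (17), and between 0 and 8, 0 and 1, and 0 and 2 members lower (0 in each). A lone library is then assumed to vary like the other groups. With shRNA1, dropping either control library also raised the number of all tested genes called lower. The members' median log2 difference ranged from 0.17 to 0.26 with shRNA1 (0.23 with all), 0.45 to 0.82 with shRNA2 (0.62) and 0.36 to 0.66 between hairpins (0.51). A minimum of 5 RPKM, which tests fewer genes, gave 5, 10 and 7 members higher and 1 lower between hairpins. No minimum level gave 2 members lower with shRNA1, removing a length trend 1 with shRNA1 and 2 between hairpins, 1 fit of all libraries 1 lower with each hairpin, and a pseudocount of 1 or robust variances 1 lower between hairpins. The causes of these shifts were not tested.

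The letters A and B are shared across groups but the labels tie them to nothing. Deviations of A libraries correlated across 10660 genes at 0.26 (control and shRNA1), 0.42 (control and shRNA2) and 0.37 (shRNA1 and shRNA2). A fit with the letter as replicate block gave 17, 34 and 22 members higher and 6, 2 and 3 lower, so the counts of 0 lower did not hold in it. That fit also called more of all tested genes lower, 1866, 2164 and 1294, against 911, 811 and 650 in the main fits.

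Among the sensors and the STAT and IRF factors, differences that were not called passed the threshold in 20 cases. With shRNA1 these were lower values, for IFIH1 with the replicate block (adjusted p = 0.0291), the length trend removed (0.0444) and control B left out (0.0317), and for IRF1 with control B left out (0.00901). With shRNA2 they were higher values, for IFI16 under 5 settings (adjusted p from 0.00801 to 0.0464) and, with the replicate block, DHX58 (0.0362) and DDX60 (0.0233). Between hairpins they were higher values, for STAT2 under 6 settings (0.0183 to 0.0497) and DHX58 under 3 (0.0123 to 0.0481). The sign of others changed. With shRNA1, EIF2AK2 was -0.026 with quantile normalization, -0.103 with the length trend removed and between -0.135 and 0.147 with a library left out. DDX60 was -0.056 with the trend removed and between -0.106 and 0.297 with a library left out, IRF7 between -0.113 and 0.293 and IRF9 between -0.072 and 0.195. Between hairpins, leaving out a library gave IRF1 -0.063 to 0.225, DDX58 -0.138 to 0.035 and ZNFX1 -0.141 to 0.237. Called members kept their direction in every alternative that tested them. Of the calls, 4 of 11 with shRNA1, 17 of 22 with shRNA2 and 4 of 17 between hairpins were kept in all such alternatives. Settings that left a gene under the minimum level, as for OAS1 with shRNA1 without shRNA1 B, are not among them. With 15 and 8 reads in the control libraries, IFITM1 is among the members whose precision depth limits.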
